A study of Homo sapiens with 4 samples.

Results

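The genes described here encode the ephrins and Eph receptors, the Slits and their Robo receptors, and the netrins and their receptors of the DCC and UNC5 families. They were chosen among protein-coding genes by symbol alone, with no expression value used, and numbered 41 of the 64252 genes in the count table, of which 17 encode ligands and 24 encode receptors. The libraries were RNA-seq of SK-N-BE(2), a cell line from human neuroblastoma, that carried either a scrambled shRNA (sh-Scb) or an shRNA against SAPCD2 (sh-SAPCD2), with 2 libraries per group. According to the study's methods, both groups were stable lines made by lentiviral infection and puromycin selection, so the controls also carried a hairpin. The labels name neither the hairpin used nor separate cultures, and p-values therefore measure only the spread between these libraries, which may be technical. The comparison asks which of these genes differ in RNA level when SAPCD2 is knocked down.

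Ephrins are membrane-bound ligands of the Eph receptor tyrosine kinases, and ligand and receptor meet where cells touch. Slits are secreted proteins that mostly repel growing axons through Robo receptors, while netrins attract or repel them depending on whether DCC family or UNC5 family receptors are present. Neuroblastoma arises from the sympathetic lineage of the neural crest, whose migrating cells and axons use these same cues, and UNC5 receptors and DCC are also known as dependence receptors, which can trigger apoptosis when no netrin is bound.

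SAPCD2, the targeted gene, had 2308 and 2263 counts in the sh-Scb libraries and 895 and 1648 counts in the sh-SAPCD2 libraries, a log2 fold change of −0.91 (SE 0.193, edgeR adjusted p = 0.0206). The libraries held 25347900 to 31850997 counts, so that 3 counts, taken as the smallest detectable amount, equaled 0.0955 to 0.119 CPM (counts adjusted for library depth), a floor that covers counting error only. All 11 adrenergic neuroblastoma markers were present in these cells, with 4 lower and 1 higher in the knockdown. DBH was at 155 and 146 CPM in the control libraries and 57.9 and 60.1 CPM in the knockdown libraries, and MYCN, which made up most of the list's sum, was at 3235 and 3178 against 5904 and 7091 CPM. Markers of other cell types were low for blood, glial and endothelial cells, whose lists summed to at most 14.1, 7.36 and 1.24 CPM in any library, with SOX10, CD3E and HBB at 0. The mesenchymal list summed to 1588 and 1596 CPM in the controls against 881 and 924 CPM in the knockdown libraries, mostly from VIM. In this list VIM and FN1 were lower, TWIST1 (167 and 172 against 109 and 171 CPM) and LUM (139 and 155 against 185 and 134 CPM) were not called, and PRRX1 was at 0.

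The second sh-SAPCD2 library stood apart from the first in a way that followed base composition. Across 17467 genes, the Spearman correlation between the GC content of the transcript and the log2 ratio of the second over the first library was 0.563 for sh-SAPCD2 and −0.0555 for sh-Scb, and that between GC content and the log2 fold change of the knockdown was 0.202, where all genes share the same 4 libraries. Of the 18 tested guidance genes with a GC content of at least 55%, 15 were higher in the second knockdown library, with a median ratio of 1.30. Of the 15 with a lower GC content, 5 were higher, with a median ratio of 0.97. The part of this difference in the results below was not tested. Each log2 fold change was also computed after each library had been corrected for GC content and transcript length, and the corrected value is given where it matters. SAPCD2 itself has a GC content of 66.5%, and its level in the second knockdown library was 1.48 times that in the first. Its corrected log2 fold change was −1.29 (edgeR adjusted p = 5.9e-05).

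**Figure D1:**
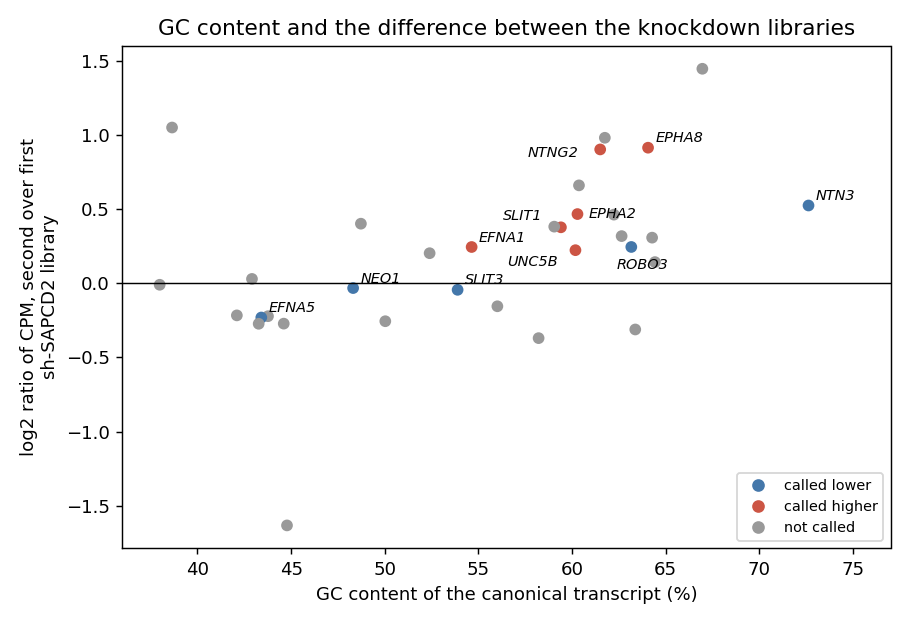
Each point is 1 of the 33 tested guidance genes, with the GC content of its canonical transcript in percent on the x axis and the log2 ratio of its CPM in the second over the first sh-SAPCD2 library on the y axis, colored by call. Most GC-rich genes, such as NTNG2 and EPHA8, lie above 0, whereas SLIT3, NEO1 and EFNA5 lie under it.

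Of the 41 genes, 33 had enough counts to be tested and 28 of these reached a mean of 1 CPM in either group. SAPCD2-knockdown cells had lower RNA levels of 5 genes (NTN3, SLIT3, EFNA5, ROBO3 and NEO1) and higher levels of 6 (NTNG2, EPHA8, EPHA2, EFNA1, UNC5B and SLIT1) at an adjusted p under 0.05 in edgeR's quasi-likelihood test. These 11 made up 33.3% of the tested members, beside 24.8% of all 18779 genes tested (12.5% lower and 12.4% higher). With an absolute log2 fold change over 1 as well, 2 were lower and 4 higher, together 18.2% of the members beside 9.84% of all genes (5.15% lower and 4.69% higher). The CPM ranges of the groups did not overlap for 23 members, or 69.7%, against 67% of all genes, and log2 fold changes had a median of 0.02 among the members and of 0.02 among all genes tested. The calls of EFNA1, EFNA5, ROBO3, NEO1 and SLIT1 were lost in fits that left out a control library. Without the first sh-Scb library EFNA5 (log2 fold change −0.73), ROBO3 (−0.52), NEO1 (−0.49) and SLIT1 (0.78) were no longer called. Without the second, EFNA5 (−0.81), ROBO3 (−0.80), NEO1 (−0.56), SLIT1 (0.69) and EFNA1 (0.93) were not. With a lone control, the spread came from the knockdown libraries only. The SE of NEO1 rose from 0.125 to 0.305 in both fits, and that of SLIT1 from 0.183 to 0.332 and 0.333. A lost call in these fits therefore does not show that a gene leaned on 1 library. Calls became fewer without either control library and more numerous without either knockdown library, among the members and among all genes alike. Without the second sh-SAPCD2 library, the log2 fold changes of EPHA2 and EPHA8 were each 1.00, beside 1.25 and 1.53 with all libraries. These are bulk samples, in which fewer cells of a type and less RNA per cell cannot be told apart.

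**Figure D2:**
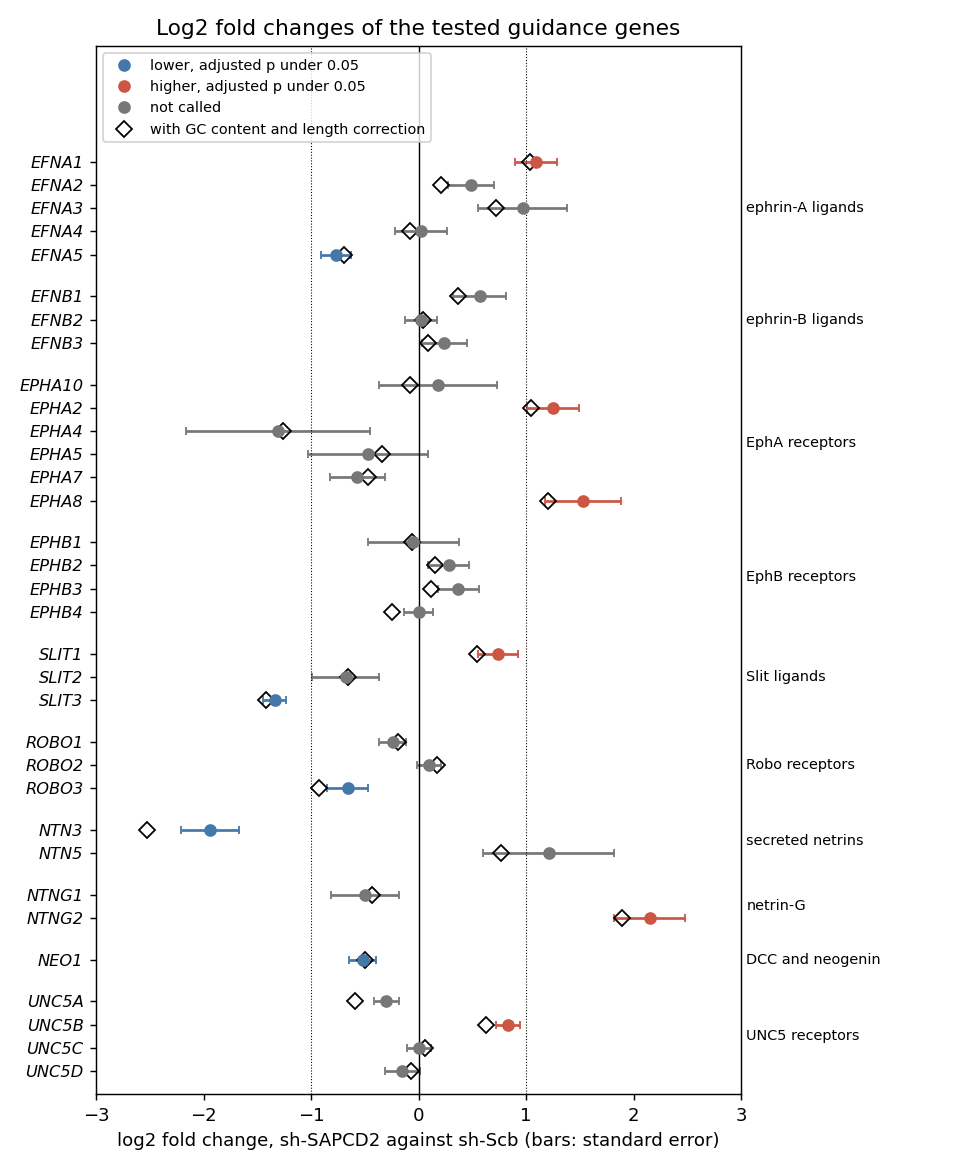
Log2 fold change of each tested guidance gene, sh-SAPCD2 against sh-Scb, on the x axis, with genes grouped by family on the y axis. Filled circles with bars give the estimate and its standard error, open diamonds the estimate after correction for GC content and length, and dotted lines a log2 fold change of −1 and 1. NTN3 at −1.94 and NTNG2 at 2.15 lie furthest from 0.

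**Figure D3:**
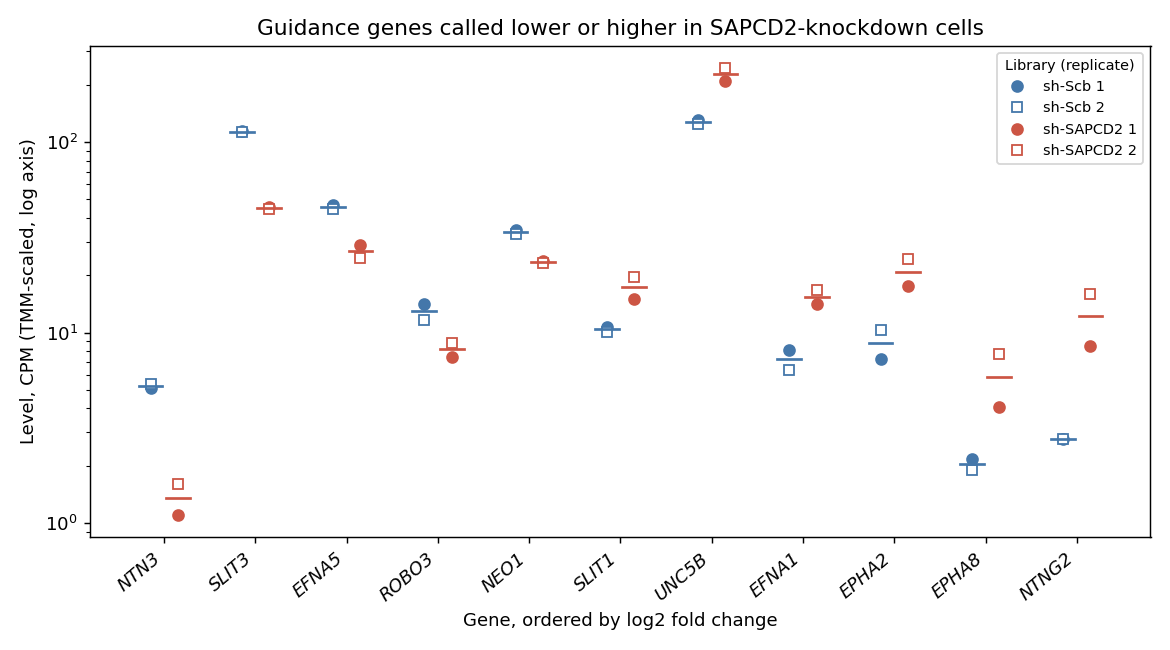
CPM of the 11 called genes in each library on a log axis, with genes ordered by log2 fold change along the x axis and short lines marking group means. In every gene shown both sh-SAPCD2 libraries lie on the same side of both sh-Scb libraries, and the knockdown libraries lie furthest apart for NTNG2 and EPHA8.

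Among the GPI-anchored ephrin-A ligands, which mainly bind EphA receptors, EFNA1 rose and EFNA5 fell. EFNA1 (ENSG00000169242, chromosome 1, 155127876 to 155134899), a ligand with high affinity for EphA2, had 223 and 176 counts in the sh-Scb libraries and 357 and 525 counts in the sh-SAPCD2 libraries. Its level was 7.23 ± 1.19 CPM (SD, n = 2) in control and 15.4 ± 1.85 CPM (SD, n = 2) in knockdown cells, 2.13 times the control mean. The log2 fold change was 1.09 (SE 0.194, edgeR adjusted p = 0.0125), and 1.04 after the correction. EFNA5 (ENSG00000184349, chromosome 5, 107376894 to 107670937), which helps to set up topographic axon maps, had 1296 and 1221 counts in the controls and 730 and 772 counts in the knockdown libraries. Its mean fell from 45.6 ± 1.80 CPM to 26.7 ± 3.01 CPM (SD, n = 2 each), a log2 fold change of −0.77 (SE 0.137, edgeR adjusted p = 0.0125). Both genes kept their groups apart in all 4 libraries. Measured as CPM per kilobase of transcript, which allows levels of different genes to be set side by side, EFNA5 was the most abundant ephrin-A in control cells (8.50, against 4.66 for EFNA1), and EFNA1 in knockdown cells (9.93, against 4.97 for EFNA5). The order of the pair was thus exchanged in each knockdown library, where EFNA1 supplied 41.3% and 45.5% of the summed ephrin-A level and EFNA5 24.4% and 19.3%.

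The other 3 ephrin-A genes and the 3 transmembrane ephrin-B genes did not pass the test. EFNA3, which lies 40.3 kb before EFNA1 on chromosome 1, had 51 and 34 counts in the controls against 51 and 125 in the knockdown libraries, so that its log2 fold change of 0.97 (SE 0.413, edgeR adjusted p = 0.138) came with a 1.98-fold gap between the knockdown libraries. EFNA4, a further 9.28 kb away, had a log2 fold change of 0.02 with overlapping groups, and EFNA2 one of 0.49. A readthrough gene joining EFNA4 and EFNA3 had 0 and 0 counts in the controls and 30 and 5 in the knockdown libraries, so reads of these neighbors may have been shared out unequally. EFNB1, which signals in both directions across the contact, was at 10.8 and 12.8 CPM in the controls and 13.5 and 21.4 CPM in the knockdown libraries, a log2 fold change of 0.57 (SE 0.246, edgeR adjusted p = 0.142). EFNB2, the ligand of EphB4 in vessel formation and the most abundant ephrin-B per kilobase in the control cells, had a log2 fold change of 0.02 (SE 0.149), and EFNB3 one of 0.24.

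Among Eph receptors, EPHA2 and EPHA8 rose, and the other tested EphA and EphB genes did not pass the test. EPHA2 (ENSG00000142627, chromosome 1, 16124337 to 16156069), a receptor of EFNA1 that is often abundant in carcinomas, had 201 and 283 counts in the sh-Scb libraries and 443 and 760 counts in the sh-SAPCD2 libraries. Its mean was 8.78 ± 2.13 CPM in control and 20.9 ± 4.74 CPM in knockdown cells (SD, n = 2 each), with a log2 fold change of 1.25 (SE 0.243, edgeR adjusted p = 0.0162) and a corrected value of 1.05. EPHA8 (ENSG00000070886, chromosome 1, 22563489 to 22603595), a receptor with a known role in the wiring of the midbrain, had 60 and 52 counts in the controls and 103 and 241 in the knockdown libraries. Its log2 fold change was 1.53 (SE 0.352, edgeR adjusted p = 0.0261) and 1.20 when corrected, and the level in the second knockdown library was 1.89 times that in the first. EPHB2, which lies 107 kb from EPHA8 on the same strand, had a log2 fold change of 0.28 (edgeR adjusted p = 0.321). The summed EphA level was 2.89 and 3.69 CPM per kilobase in the controls and 5.79 and 8.13 in the knockdown libraries, of which EPHA2 supplied 63.8%, 70.7%, 76.6% and 75.5% in the same order. Without a filter on low counts, neither EPHA2 (adjusted p = 0.0620) nor EPHA8 (adjusted p = 0.0856) passed edgeR's threshold. EphA receptor RNA was thus low and came mostly from a single gene in all 4 libraries.

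The remaining EphA genes were scarce. EPHA7, the only other member to reach a mean above 1 CPM, was at 2.57 and 2.47 CPM in the controls and 1.70 and 1.69 CPM in the knockdown libraries, without overlap, yet its log2 fold change of −0.57 did not pass the test (SE 0.258, edgeR adjusted p = 0.155). EPHA4, EPHA5 and EPHA10 were tested with 4 to 28 counts per library and none was called. EPHA1 had 2 to 8 counts per library and overlaps ZYX on the opposite strand, EPHA6 had 0 to 7, and EPHA3 had no count in any library.

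EphB receptors, which bind the transmembrane ephrin-B ligands, were more abundant per kilobase than EphA receptors and were not called without a correction. EPHB4, the receptor of EFNB2, made up 75.9% and 75.2% of the summed EphB level in the controls and 71.5% and 70.4% in the knockdown libraries. It had 1915 and 1947 counts in the controls and 1578 and 2442 counts in the knockdown libraries, which lay on either side of the controls. The log2 fold change was 0.00 (SE 0.137, edgeR adjusted p = 0.998), whereas the corrected value was −0.25 (adjusted p = 0.0203), so the call depended on the joint correction for GC content and length. SLC12A9, which overlaps EPHB4 on the opposite strand, rose by a log2 fold change of 0.90 (edgeR adjusted p = 0.0155), and whether reads were counted by strand is not given in the sources used here. EPHB3 had a log2 fold change of 0.37 (SE 0.188, edgeR adjusted p = 0.198). EPHB1 was tested with 14 to 20 counts per library and EPHB6, a receptor without kinase activity, had 5 counts in 1 control library and 0 elsewhere.

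Among the Slit ligands, SLIT3 fell and SLIT1 rose. SLIT3 (ENSG00000184347, chromosome 5, 168661740 to 169301139), a secreted ligand of ROBO1 and ROBO2 that also acts outside the nervous system, had 3163 and 3107 counts in the sh-Scb libraries and 1158 and 1394 counts in the sh-SAPCD2 libraries. Its mean fell from 114 ± 1.12 CPM to 45.1 ± 0.96 CPM (SD, n = 2 each), 0.396 times the control level, with a log2 fold change of −1.34 (SE 0.103, edgeR adjusted p = 0.0021). The libraries of each group agreed closely, and the corrected value of −1.42 lay near the uncorrected value. SLIT1 (ENSG00000187122, chromosome 10, 96998038 to 97185959), the Slit most restricted to the nervous system, had 297 and 277 counts in the controls and 382 and 616 counts in the knockdown libraries. Its mean rose from 10.4 ± 0.48 CPM to 17.4 ± 3.20 CPM (SD, n = 2 each), a log2 fold change of 0.74 (SE 0.183, edgeR adjusted p = 0.0324) that became 0.54 when corrected. SLIT2 was at 1.92 and 1.78 CPM in the controls and 0.99 and 1.31 CPM in the knockdown libraries, and its log2 fold change of −0.68 did not pass the test (SE 0.315, edgeR adjusted p = 0.164). The summed Slit level was 13.4 and 13.1 CPM per kilobase in the controls and 6.73 and 7.19 in the knockdown libraries. SLIT3 remained the most abundant Slit in every library, with 88.1% and 88.7% of the sum in the controls against 70.0% and 63.5% in the knockdown libraries, while the share of SLIT1 was 10.1% and 9.64% against 28.2% and 34.2%.

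Among the Robo receptors, ROBO3 fell, and ROBO1 and ROBO2 did not pass the test. ROBO2, the most abundant Robo per kilobase, was at 182 and 180 CPM in the controls and 208 and 179 CPM in the knockdown libraries, with overlapping groups and a log2 fold change of 0.10 (SE 0.111, edgeR adjusted p = 0.545). ROBO1, which lies 947 kb from ROBO2 on chromosome 3, was at 108 CPM in both controls and at 99.8 and 82.7 CPM in the knockdown libraries, a log2 fold change of −0.24 (SE 0.124, edgeR adjusted p = 0.199). After the correction both passed the threshold, ROBO1 at −0.19 (adjusted p = 0.0454) and ROBO2 at 0.17 (adjusted p = 0.0385), and each stayed small. ROBO3 (ENSG00000154134, chromosome 11, 124865432 to 124881471), an atypical member needed for axons to cross the midline, had 392 and 322 counts in the controls and 189 and 278 in the knockdown libraries. Its mean was 12.9 ± 1.76 CPM in control and 8.16 ± 0.98 CPM in knockdown cells (SD, n = 2 each), with a log2 fold change of −0.66 close to the threshold (SE 0.188, edgeR adjusted p = 0.0479). DESeq2 gave an adjusted p of 0.0561, and edgeR one of 0.0588 without the first knockdown library (log2 fold change −0.55), while the corrected value was −0.93 (adjusted p = 0.0041). ROBO4, the endothelial member, which lies 2.22 kb from ROBO3, had 2 to 4 counts per library. The summed Robo level was 38.9 and 38.1 CPM per kilobase in the controls and 39.2 and 33.8 in the knockdown libraries, so these groups overlapped.

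SLIT2 and SLIT3 each host a copy of the miR-218 gene in an intron, at chr4:20528299-20528319 on the plus strand and chr5:168768211-168768231 on the minus strand (RefSeq, GRCh38.p14), and miR-218 is known to target Robo RNA. The mature microRNA is shown with its seed, bases 2 to 8, in capitals, followed by the 3′ UTR sites of ROBO1 and ROBO2 (GENCODE 44, hg38), where capitals mark the 7 bases complementary to the seed.
hsa-miR-218-5p: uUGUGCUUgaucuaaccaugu
ROBO1, chr3:78597925-78597953, minus strand: tttggttttaaAAGCACAatcactaaact
ROBO2, chr3:77646500-77646528, plus strand: tatttggtgatAAGCACAaatctctactc
ROBO2, chr3:77648945-77648973, plus strand: atgtccaatacAAGCACAgcttcattcat
The precursor genes MIR218-1 and MIR218-2 had a single count among all 4 libraries, in a control, and the mature microRNA cannot be read from these libraries of longer RNA. The letters AAGCACA were present in the 3′ UTR of 11 of the 33 tested members (33.3%), beside 15.7% of 13583 tested protein-coding genes, with no allowance for 3′ UTR length. They occurred in 1 of the 5 lower genes (SLIT3), 1 of the 6 higher genes (EPHA8) and 9 of the 22 genes that were not called.

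Netrin ligands held both the strongest fall and the strongest rise among all called members. NTN3 (ENSG00000162068, chromosome 16, 2471297 to 2474145), a secreted netrin, had 142 and 147 counts in the sh-Scb libraries and 28 and 50 counts in the sh-SAPCD2 libraries. Its mean fell from 5.24 ± 0.14 CPM to 1.35 ± 0.34 CPM (SD, n = 2 each), 0.257 times the control level, with a log2 fold change of −1.94 (SE 0.271, edgeR adjusted p = 0.0065). With a GC content of 72.6%, the highest among the tested members, NTN3 moved to −2.53 after the correction. NTNG2 (ENSG00000196358, chromosome 9, 132162058 to 132244526) encodes netrin-G2, which is anchored to the membrane and binds the synaptic protein NGL-2 rather than DCC or UNC5. It had 76 and 76 counts in the controls and 215 and 499 counts in the knockdown libraries. Its mean was 2.76 ± 0.01 CPM in control and 12.2 ± 5.23 CPM in knockdown cells (SD, n = 2 each), 4.42 times the control level, with a log2 fold change of 2.15 (SE 0.330, edgeR adjusted p = 0.0084). The rise was present in both knockdown libraries but differed 1.87-fold between them, and the corrected value was 1.89.

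The other netrins were scarce. NTN1, the best known netrin, had 3 and 9 counts in the controls and 2 and 16 in the knockdown libraries and was not tested. NTN5 had 9 and 14 counts in the controls and 13 and 44 in the knockdown libraries and did not pass the test (log2 fold change 1.21, SE 0.608, edgeR adjusted p = 0.195), and SEC1P, a pseudogene over it on the opposite strand, had 2 and 2 counts in the controls and 11 and 15 in the knockdown libraries. NTN4 had no count in any library, and NTNG1 had a log2 fold change of −0.50 (edgeR adjusted p = 0.289). The 4 secreted netrins together reached only 2.54 and 2.77 CPM per kilobase in the controls and 0.80 and 1.57 in the knockdown libraries, and NTN3 supplied 92.3% and 88.1% of the sum in the controls.

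Netrin receptor RNA was abundant in comparison. The summed UNC5 level was 61.6 and 61.7 CPM per kilobase in the controls and 71.6 and 74.2 in the knockdown libraries, the highest of any family described here. UNC5B (ENSG00000107731, chromosome 10, 71212570 to 71302864), a dependence receptor known as a p53 target, had 3592 and 3448 counts in the sh-Scb libraries and 5299 and 7678 counts in the sh-SAPCD2 libraries. Its mean rose from 128 ± 3.34 CPM to 227 ± 24.9 CPM (SD, n = 2 each), a log2 fold change of 0.83 (SE 0.114, edgeR adjusted p = 0.0062) that was 0.63 when corrected. Per kilobase it exceeded UNC5C in knockdown cells (33.2 against 25.4) but not in the controls (18.7 against 25.4), and its share of the UNC5 sum was 30.8% and 29.7% in the controls against 42.7% and 48.2%. UNC5C was at 242 and 248 CPM in the controls and 263 and 226 CPM in the knockdown libraries, which lay on either side of the controls (SE of the log2 fold change 0.111, edgeR adjusted p = 0.988). UNC5A was at 60.9 CPM in both controls and at 46.9 and 51.8 CPM in the knockdown libraries. Its log2 fold change of −0.30 did not pass the test (SE 0.115, edgeR adjusted p = 0.105), whereas the corrected value of −0.59 did (adjusted p = 0.0063). UNC5D had a log2 fold change of −0.15 (SE 0.160).

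NEO1 (ENSG00000067141, chromosome 15, 73051710 to 73305205), which encodes neogenin, a receptor of netrins and of repulsive guidance molecules, fell. It had 954 and 902 counts in the controls and 599 and 727 counts in the knockdown libraries. The mean was 33.7 ± 1.24 CPM in control and 23.4 ± 0.36 CPM in knockdown cells (SD, n = 2 each), with a log2 fold change of −0.52 (SE 0.125, edgeR adjusted p = 0.0295) and a corrected value of −0.50. DCC, its close relative and the classic attractive netrin receptor, had 2 and 0 counts in the controls and 0 and 4 in the knockdown libraries, so no difference was detectable at this depth. Neogenin thus supplied at least 99.6% of the summed level of the pair in every library.

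**Figure D4:**
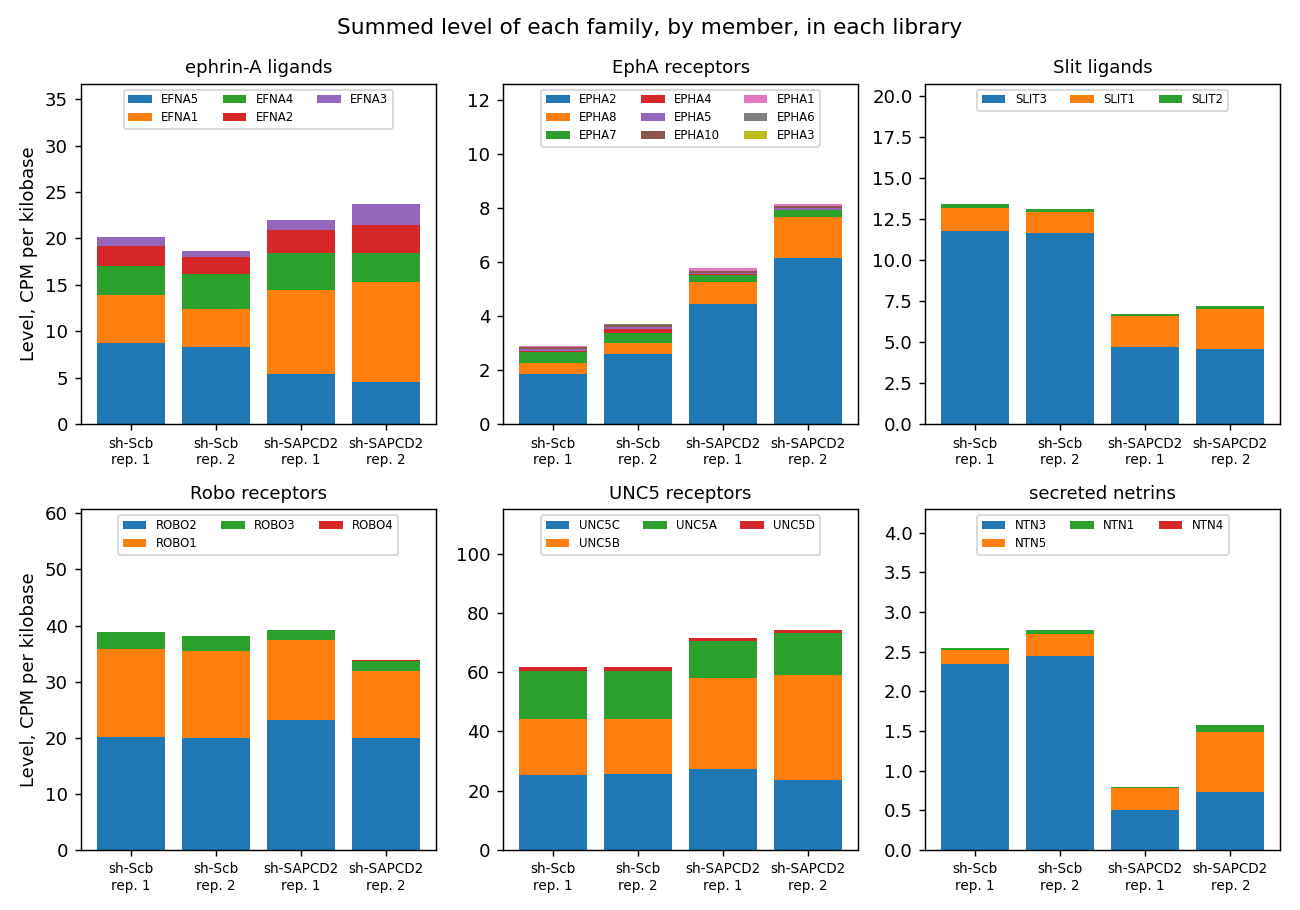
Stacked bars give the summed CPM per kilobase of transcript of 6 families in each library, with colors for the members. The levels are not corrected for GC content differences between libraries. The Slit bars are shorter in both knockdown libraries, where SLIT3 is lower, the EphA and UNC5 bars are taller, where EPHA2 and UNC5B are higher, and the Robo bars of the groups overlap, at 33.8 to 39.2 CPM per kilobase.

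The family sums and shares are given as a description and were not tested. They use levels without the correction for GC content and length differences between libraries. How far that correction would move them was not computed. The order of the families by mean summed level was the same at the top in both groups, with UNC5 receptors first (61.6 and 72.9 CPM per kilobase in control and knockdown cells) and Robo receptors next (38.5 and 36.5). EphB receptors followed at 21.3 and 22.7, near the ephrin-A ligands at 19.4 and 22.8. In the control cells Slit ligands (13.2) stood just above ephrin-B ligands (12.7), and in the knockdown cells they were at 6.96 and 14.9. Receptors of netrins and Slits were thus more abundant at the RNA level than the netrins and Slits themselves in all 4 libraries.

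The hairpin sequence is shown beside matching letters in the called members. The study lists 2 hairpins against SAPCD2, and the labels do not say which was used. In the antisense arm of sh-SAPCD2 #1, capitals mark bases 5 to 11, and the 3′ UTR sites below them (GENCODE 44, hg38) belong to the 3 called members that hold TCCACCT, the word complementary to the marked bases, in capitals.
sh-SAPCD2 #1 antisense arm: atgaAGGTGGAatccagaggt
EFNA5 (lower), chr5:107381180-107381208, minus strand: aacaccagagaTCCACCTaactgctcatc
ROBO3 (lower), chr11:124881403-124881431, plus strand: ttctttcttttTCCACCTgagacttgttt
NTNG2 (higher), chr9:132243546-132243574, plus strand: ccagcctcctgTCCACCTatgtttatttc
TCCACCT was present in 8 of the 33 tested members (24.2%), beside 17.9% of 13583 tested protein-coding genes. It was present in 2 of the 5 lower members and 1 of the 6 higher members, beside 28.9% of all lower and 12.9% of all higher genes. NTNG2 also held a further TCCACCT site, at chr9:132243611-132243639 on the plus strand, which is not shown above. Earlier results of these data had singled out this word together with CCACCTA, with AGAGGTC and also with GAGGTCA, which are not complementary to either arm over their whole length. The shares among lower and higher genes are therefore a description only, as the words were not chosen independently of them. At least 1 of the 4 words was present in 12 members (36.4%), beside 33.9% of the genes, with SLIT1 added among the called members. SLIT3, NTN3 and NEO1 held none, in 3′ UTRs of 4714, 40 and 2509 bases. No allowance was made for 3′ UTR length in these shares. These are matches of letters only, and pairing with the hairpin was not measured. Promoters of 250 bases before to 50 after the start (RefSeq, GRCh38.p14) were found for 27 of the tested members. None held the E2F words TTTCCCGC, TTTGGCGC, TTTCGCGC or TTTGCCGC on either strand, beside 6.39% of 10988 tested protein-coding genes, which says only that these letters are not in these windows.

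A list of 67 partner and effector genes of the same pathways, compiled from general knowledge, described what lies around and downstream of the receptors. Of these, 61 were tested, with 12 lower and 9 higher, or 34.4% beside 24.8% of all genes, and a median log2 fold change of 0.11 beside 0.02. Only 5 passed an absolute log2 fold change of 1 (8.2% beside 9.84%).
The lower genes included RHOA, a small GTPase through which ephrin signals collapse growth cones. RHOA fell from 248 ± 6.67 to 133 ± 3.76 CPM (SD, n = 2 each) with a log2 fold change of −0.90 (SE 0.096, edgeR adjusted p = 0.0037). GRIP1, a scaffold that binds ephrin-B and Eph receptors, fell by 1.85 on the log2 scale (SE 0.221, edgeR adjusted p = 0.0046) and FLRT3, a membrane protein that binds UNC5 and Robo receptors, by 1.12 (SE 0.173, edgeR adjusted p = 0.0086). MAGED1, a partner of UNC5 receptors in apoptosis, had a log2 fold change of −0.80 (SE 0.093, edgeR adjusted p = 0.0044). Among further lower genes, NELL1 was at −2.50 (edgeR adjusted p = 0.0109) and ABL1 at −0.35 (edgeR adjusted p = 0.0461, but 0.0611 in DESeq2).
The higher genes included TIAM1 (log2 fold change 0.83, SE 0.110, edgeR adjusted p = 0.0058) and VAV2 (0.64), exchange factors that activate Rac downstream of ephrins, NCK2 (0.82), an adaptor of Eph, Robo and DCC signals, VASP (1.10), an actin regulator of growing filaments, and NELL2 (0.63), a secreted ligand of ROBO3 that was at 22.4 and 22.5 CPM in the controls and at 34.8 CPM in both knockdown libraries. Without the first control library NCK2, VAV2 and NELL2 (edgeR adjusted p = 0.0622, 0.126 and 0.204) were no longer called, and without the second TIAM1, VAV2 and NELL2 (edgeR adjusted p = 0.0692, 0.170 and 0.203) were not, with log2 fold changes of 0.61 to 0.77. The log2 fold changes of RAC1 and CDC42, the other GTPases of the pathway, were −0.09 and −0.16 and were not called.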

How the data were processed

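RNA-seq had been made for 4 libraries of SK-N-BE(2) cells, 2 with sh-Scb and 2 with sh-SAPCD2, grouped by the labels. Per the study's methods and processing notes, the authors aligned paired-end reads to hg38 with HISAT2 2.2.0 and estimated abundances with StringTie, and they deposited whole-number counts per Ensembl gene without scaling. The step from abundance to counts and the use of strand are not given in the sources used here. Of 64252 genes, 29317 had no count.

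Counts were scaled by TMM and tested with edgeR 4.0.16 (R 4.3.3; quasi-likelihood, two-sided, Benjamini-Hochberg over all 18779 genes that passed filterByExpr at a minimum count of 10 and total of 15). A gene was called at an adjusted p under 0.05. SE is the log2 fold change over the root of F. The biological coefficient of variation was 15.4%. CPM are TMM-scaled, and CPM per kilobase uses the canonical GENCODE 44 transcript. Libraries held 25347900 to 31850997 counts. On simulated data edgeR recovered 200 of 200 genes changed by a log2 of 1.5, with 12 unchanged genes called among 18397. The simulation gave every gene the same dispersion, changed only genes above a minimum mean count, and held no GC difference between libraries. It therefore does not measure the error rates in the real libraries.

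Alternatives were DESeq2 1.42.0, its size factors, library totals, no filter, a filter at a mean of 1 CPM, a loess correction for GC content and length (span 0.3), the replicate block with and without it, protein-coding genes only, and each library left out. The corrections used 17467 genes with annotation (93%). Members at 1 CPM or more were named, called ones with their counts, and at most 5 partner genes in each direction by smallest p. DBH, NELL1, ABL1, RAC1, CDC42 and overlapping genes were named after their values were seen, and some genes are not reported here. The members, lists and words were chosen with earlier results of these data known. Python 3.11.15 and matplotlib 3.10.9 were used for annotation and figures.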

Additional observations from a re-analysis of the deposited data

How the results depend on the processing

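Under the 9 alternatives to the test, scaling, filter and gene set, each called member kept its direction. SLIT3, NTN3, NTNG2 and UNC5B were called in all 9 and in all 4 fits that left out a library. Without a filter on low counts, EPHA2, EPHA8, SLIT1, NEO1 and ROBO3 were not called, 3 members were lower and 3 higher, 2 of the latter with a log2 fold change over 1, 4 partner genes were higher, 1180 and 1081 of all genes were lower and higher (553 higher with a log2 fold change over 1), and SAPCD2 at −0.91 had an adjusted p of 0.0749. With the correction for GC content and length, 8 members were lower, the members' median was −0.06, 16 partner genes were higher, and 3562 and 3923 of all genes were lower and higher. The labels number the libraries 1 and 2 in both groups, and deviations of same-numbered libraries had a correlation of −0.0188. With 2 libraries per group, and knockdown libraries that differed by GC content, this cannot settle whether the numbers pair them. With the replicate block 5 members were lower and 7 higher (EFNB1 added, adjusted p = 0.0496), and with block and correction 16 partner genes and 3820 of all genes were higher. With 1 library left out in turn, the lone library being assumed to vary like the others, 2 to 7 members were lower and 4 to 10 higher (2 to 6 with a log2 fold change over 1), 6 to 19 partner genes were lower and 2 to 20 higher, 1146 to 4014 and 1176 to 4396 of all genes were lower and higher (705 to 1323 with a log2 fold change over 1), and the members' median was −0.02 to 0.11. Without the first control library ROBO3, EFNA5, NEO1 and SLIT1 were not called, without the second these and EFNA1 were not, and without the first knockdown library ROBO3 was not. Without the first knockdown library NTN5 (1.73), EFNA3 (1.36), EFNB1 (0.85), EPHB3 (0.58), ROBO1 (−0.39), UNC5A (−0.24) and UNC5C (−0.12) were also called, and without the second ROBO2 (0.21) and UNC5A (−0.38).

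Log2 fold changes near 0 turned in sign. EPHB4 was −0.0009 with the DESeq2 size factors, −0.02 with library totals, −0.01 with a mean of 1 CPM or the block, −0.25 with the correction, with or without the block, −0.03 among protein-coding genes, and −0.17 to 0.15 with a library left out. UNC5C was 0.01 in DESeq2, 0.06 with the correction, with or without the block, and −0.12 to 0.11 with a library left out. EFNA4 was −0.08 with the correction, −0.10 with the block too, −0.01 among protein-coding genes, and −0.18 to 0.20 with a library left out. EFNB2 was −0.01 among protein-coding genes and −0.12 to 0.15 with a library left out, and ROBO2 was −0.02 to 0.21 with a library left out, and −0.02 without the first knockdown library. The cause of these shifts was not tested. For the 8 untested members no difference was detectable at this depth.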

Other observations

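Antisense genes named after the guidance genes were mostly silent. UNC5C-AS1 lies on the opposite strand to UNC5C, and its annotated span overlaps only the start of UNC5C. It had 472 and 478 counts in the sh-Scb libraries and 173 and 272 counts in the sh-SAPCD2 libraries. The log2 fold change was −1.15 (SE 0.178, edgeR adjusted p = 0.0085), while UNC5C itself was not called. SLIT3-AS2, inside SLIT3 on the opposite strand, had 18 and 20 counts in the controls and 7 and 17 in the knockdown libraries (log2 fold change −0.72, edgeR adjusted p = 0.334). EPHA5-AS1 and SLIT1-AS1 had no count in any library. These genes were named after their values were seen, and whether reads were counted by strand is not given in the sources used here.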
